A study of Mus musculus with 9 samples.

Results

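The type I interferon response genes are described here in the whole lung of 3 mouse strains. The 9 members, *Isg15*, *Ifit1*, *Ifit2*, *Ifit3*, *Irf7*, *Oas2*, *Oasl2*, *Usp18* and *Rtp4*, were found by their gene symbol in the annotation of the Affymetrix Gene 2.0 ST array, taking the brightest probeset where a symbol had several. Each member had exactly 1 probeset, so 9 of the 22180 genes that the platform names by a single symbol were followed, and 9 of 41345 probesets in all. RNA of whole lung from 9 naive, untreated mice was measured with 1 array per mouse, 3 mice of each strain, and the replicates were therefore different animals. C57BL/6J is the inbred strain with weak airway constriction to methacholine, CSS12 carries Chromosome 12 of the hyperresponsive A/J strain on the C57BL/6J background, and BcA86 is a recombinant congenic strain that is mostly C57BL/6J with A/J segments, among them most of Chromosome 12. BcA86 and CSS12 are called the hyperresponsive strains together. All animals were young adults from a pathogen-free facility, and the sex of the mouse behind each array is not given in the sources used here. In such tissue RNA, fewer cells of a type and less RNA per cell cannot be told apart.

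Type I interferons are secreted by cells that sense viral or displaced nucleic acid, and they act through the receptor chains encoded by *Ifnar1* and *Ifnar2*. The receptor's kinases activate transcription factors, and a complex that contains STAT2 and IRF9 binds interferon-stimulated response elements in the promoters of target genes. In the lung, epithelial cells, macrophages and plasmacytoid dendritic cells are known sources of these cytokines, and a low tonic signal keeps part of the response expressed in the absence of infection. Of the members, IRF7 is the transcription factor that amplifies interferon production. The IFIT proteins bind foreign RNA, OAS2 is an oligoadenylate synthetase of the RNase L pathway and OASL2 is a related protein. ISG15 is a ubiquitin-like modifier, USP18 removes ISG15 from its targets and restrains the receptor, and RTP4 is an interferon-induced transporter protein that dampens the response in mice.

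To show what the members share in sequence, the promoters given by RefSeq for mouse build GRCm38.p6, 250 bases before and 50 after each start site, were searched for the core of that element, GAAANNGAAA, on both strands. Of the 9 members, 6 matched a promoter by symbol, and *Oas2*, *Usp18* and *Rtp4* had no entry. The core occurred in 3 of the 6, *Isg15*, *Ifit1* and *Ifit3*, and in 3.44% of all 32851 windows. No core was found in the windows of *Ifit2*, *Irf7* and *Oasl2*. The longer form GAAANNGAAACT, in which each match contains a match of the core, occurred in 0.271% of all windows, and in those of *Ifit1* and *Ifit3*. The stretches with the core are shown 5′ to 3′ along the strand of the gene, with the bases of the core matches in capitals, together with those of *Ifit3b* and *Oas1g*, 2 interferon targets outside the members to which the expression results return. Of the other genes searched that are described below, *Oas3*, *Rsad2* and *Stat2* also held the core, while *Cmpk2* and *Herc6* held none. The matches shown lie on the opposite strand in the 3 *Ifit* genes, where the core reads as its reverse complement. They lie on the strand of the gene in *Isg15* and *Oas1g*.
Isg15 (chr4:156200855-156200916, minus strand): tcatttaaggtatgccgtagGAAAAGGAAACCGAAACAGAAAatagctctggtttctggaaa
Ifit1 (chr19:34640765-34640833, plus strand): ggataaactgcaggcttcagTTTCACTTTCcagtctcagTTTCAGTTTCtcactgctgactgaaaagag
Ifit3 (chr19:34583353-34583436, plus strand): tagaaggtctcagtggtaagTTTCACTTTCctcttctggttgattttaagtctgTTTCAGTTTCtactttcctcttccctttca
Ifit3b (chr19:34607749-34607832, plus strand): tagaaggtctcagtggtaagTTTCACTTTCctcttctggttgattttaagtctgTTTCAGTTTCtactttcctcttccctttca
Oas1g (chr5:120887614-120887651, minus strand): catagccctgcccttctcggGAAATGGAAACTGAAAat

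*Isg15* held 3 overlapping matches in a single run, while *Ifit1* and *Ifit3* each held 2 separate ones. The promoters of *Ifit3* and its neighbouring copy *Ifit3b* were identical at 99.2% of 260 aligned bases, against 60.3% of 262 aligned bases for *Ifit1* and *Ifit3*. A match is a description of these letters, and binding was not measured. By RefSeq, the members lie on Chromosomes 4 (*Isg15*), 5 (*Oas2* and *Oasl2*), 6 (*Usp18*), 7 (*Irf7*), 16 (*Rtp4*) and 19 (the *Ifit* genes), so that none lies on Chromosome 12.

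The labelled tissue was borne out by its markers, since the mean over 7 lung genes lay between 12.48 and 12.63 on the log2 scale on all arrays. Array medians ran from 6.08 to 6.13. All values below are log2 values normalized by the robust multiarray average method (RMA), 1 unit is a doubling, and levels are compared between arrays for the same gene only. The array of CSS12 replicate 2 stood apart for these genes. It gave the highest value of the 9 arrays for 7 of the 9 members and the lowest for *Ifit3*. C57BL/6J replicate 1 gave the lowest value for 3 members. Differences of the members that move by over 1.5 times without either array are therefore also given without it.

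No member passed an adjusted p of 0.05 between any 2 strains in limma, while Cyber-T called *Oas2* in CSS12 against C57BL/6J (adjusted p = 0.021). The study also used Cyber-T, but with a fold cut and no stated adjustment, so this call is not the study's own. Most differences lay within the spread between mice. *Oas2* and *Rtp4* came closest, and both lay higher in CSS12 than in C57BL/6J. For 7 of the 9 members the strain means were ordered C57BL/6J, BcA86 and CSS12 from the lowest to the highest, the exceptions being *Irf7* and *Usp18*. This order rested in part on single arrays, since 3 members kept it without CSS12 replicate 2 (*Ifit1*, *Ifit3* and *Oas2*) and 4 kept it without BcA86 replicate 1 (*Isg15*, *Oas2*, *Oasl2* and *Rtp4*). The plot of the members by mouse shows how far the mice of a strain overlapped those of the next.

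**Figure D1:**
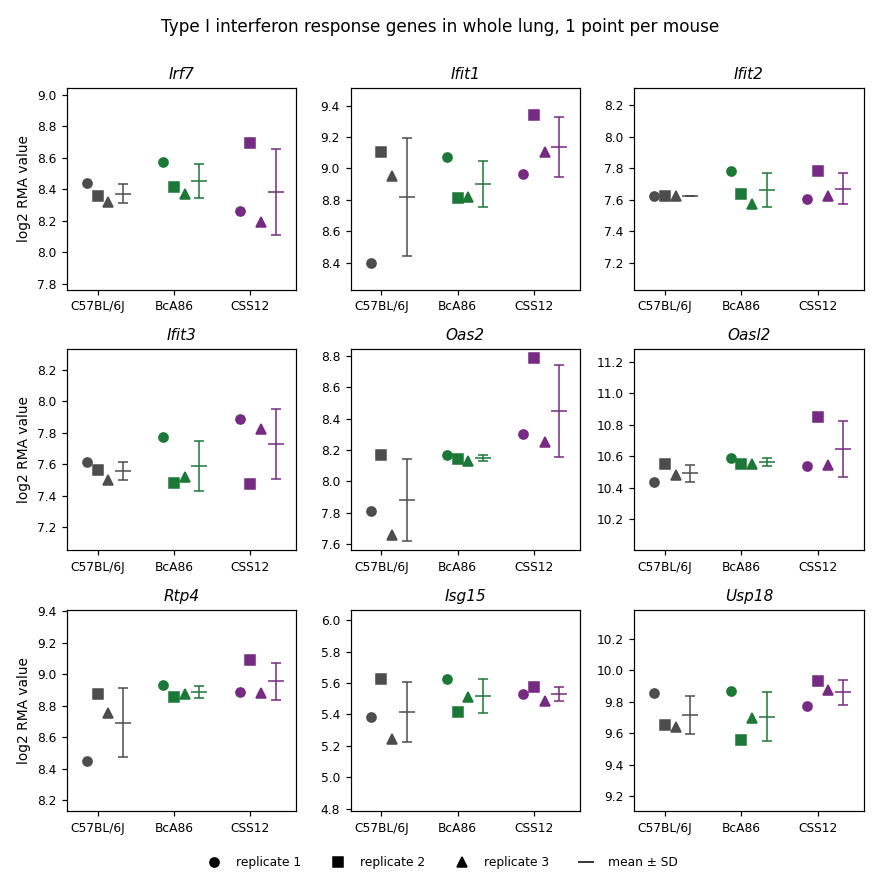
Log2 RMA value (y axis, the same span in each panel) of the 9 members in the 3 strains (x axis), with 1 symbol per mouse by replicate number and the mean ± SD of 3 mice beside the points. The strains overlap for most members, *Oas2* in CSS12 lies between 8.25 and 8.78 above all C57BL/6J mice, and the square of CSS12 replicate 2 is the highest point in 7 panels.

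*Irf7*, the transcription factor of the group, had values of 8.44, 8.36 and 8.32 in the C57BL/6J mice, 8.57, 8.41 and 8.37 in the BcA86 mice and 8.26, 8.69 and 8.19 in the CSS12 mice. The CSS12 mice held both the highest and the lowest of the 9 values. C57BL/6J averaged 8.37 ± 0.06, CSS12 8.38 ± 0.27 and BcA86 8.45 ± 0.11 (SD, n = 3 each), and no neighbours in this order differed beyond their spread. The log2 difference from C57BL/6J was 0.08 ± 0.13 (SE) in BcA86 and 0.01 ± 0.13 in CSS12. The latter became -0.14 without CSS12 replicate 2 and 0.04 with C57BL/6J replicate 1 left out.

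*Ifit1*, whose protein recognizes RNA without a fully methylated cap, had values of 8.40, 9.10 and 8.95 in C57BL/6J, 9.07, 8.81 and 8.82 in BcA86 and 8.96, 9.34 and 9.10 in CSS12. A single C57BL/6J mouse, replicate 1, lay below all the others, and the remaining values of the 3 strains were interleaved. The log2 difference from C57BL/6J was 0.32 ± 0.19 (SE) in CSS12 and 0.08 ± 0.19 in BcA86. Without C57BL/6J replicate 1 they became 0.11 and -0.13.

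*Ifit2* was the steadiest member, with 7.62 in all 3 C57BL/6J mice, 7.78, 7.64 and 7.57 in BcA86 and 7.61, 7.78 and 7.62 in CSS12. All 9 values fell within 0.21 of each other, and 3 arrays carried the same value to 4 decimals. The strain means were 7.62, 7.66 and 7.67 in C57BL/6J, BcA86 and CSS12. The log2 difference of CSS12 from C57BL/6J was 0.05, and -0.01 without CSS12 replicate 2.

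*Ifit3* had values of 7.61, 7.56 and 7.50 in C57BL/6J, 7.77, 7.48 and 7.52 in BcA86 and 7.89, 7.47 and 7.82 in CSS12. It was the only member with its lowest value in CSS12 replicate 2, the array that was highest for *Ifit1* and *Ifit2*. The log2 difference of CSS12 from C57BL/6J was 0.17 ± 0.12 (SE). Without that array it was 0.30, with an unadjusted p of 0.020 and an adjusted p of 0.45 in limma, and without CSS12 replicate 1 it was 0.09. *Ifit3* and *Ifit3b* are near-identical copies, and how far the probes tell them apart was not examined.

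*Oas2* showed the widest range of the members. Its values were 7.81, 8.17 and 7.66 in C57BL/6J, 8.17, 8.15 and 8.13 in BcA86 and 8.30, 8.78 and 8.25 in CSS12. All CSS12 mice lay above all mice of both other strains, by 0.08 or more, and the BcA86 mice stood together at the upper end of the C57BL/6J range. C57BL/6J averaged 7.88 ± 0.26, BcA86 8.15 ± 0.02 and CSS12 8.45 ± 0.29 (SD, n = 3 each). *Oas2* was 1.48-fold higher in CSS12 than in C57BL/6J, a log2 difference of 0.56 ± 0.17 (SE) with a 95% interval of 0.18 to 0.95, an unadjusted p of 0.0092 in limma and an adjusted p of 0.30. Without CSS12 replicate 2 the difference was 0.40. BcA86 differed from C57BL/6J by 0.27 ± 0.17 (SE) and CSS12 from BcA86 by 0.30 ± 0.17, and the intervals of both include 0. The latter was 0.13 without CSS12 replicate 2.

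*Oasl2* had values of 10.44, 10.55 and 10.48 in C57BL/6J, 10.59, 10.55 and 10.55 in BcA86 and 10.54, 10.85 and 10.55 in CSS12. Apart from CSS12 replicate 2, all 8 other arrays fell between 10.44 and 10.59. The log2 difference of CSS12 from C57BL/6J was 0.15 ± 0.09 (SE), with an interval of -0.05 to 0.36, and it was 0.05 without CSS12 replicate 2.

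*Rtp4* had values of 8.45, 8.88 and 8.75 in C57BL/6J, 8.93, 8.86 and 8.88 in BcA86 and 8.89, 9.09 and 8.88 in CSS12. The lowest CSS12 mouse lay 0.01 above the highest C57BL/6J mouse, so the groups did not overlap, but by less than the spread within either strain. *Rtp4* was 1.20-fold higher in CSS12 than in C57BL/6J, a log2 difference of 0.26 ± 0.11 (SE) with an interval of 0.00 to 0.52, an unadjusted p of 0.048 in limma and an adjusted p of 0.46. This difference was 0.14 without C57BL/6J replicate 1 and 0.19 without CSS12 replicate 2. BcA86 differed from C57BL/6J by 0.20 ± 0.11 (SE), and by 0.07 without C57BL/6J replicate 1.

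*Isg15*, the ubiquitin-like modifier, had values of 5.38, 5.62 and 5.24 in C57BL/6J, 5.63, 5.41 and 5.51 in BcA86 and 5.53, 5.58 and 5.49 in CSS12. Its probeset was dim, below the median of each array. The C57BL/6J mice spanned nearly the whole range, and the mice of the other strains lay inside or at its upper edge. The log2 difference from C57BL/6J was 0.10 ± 0.10 (SE) in BcA86 and 0.11 ± 0.10 in CSS12. Without C57BL/6J replicate 2 these were 0.21 and 0.22, and without C57BL/6J replicate 3 they were 0.02 and 0.03.

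*Usp18*, which reverses ISG15 conjugation, had values of 9.86, 9.65 and 9.64 in C57BL/6J, 9.87, 9.56 and 9.70 in BcA86 and 9.78, 9.93 and 9.87 in CSS12. C57BL/6J and BcA86 did not differ beyond their spread, with means of 9.72 ± 0.12 and 9.71 ± 0.15 (SD, n = 3 each). The mean of CSS12 was 9.86 ± 0.08, and its log2 difference from C57BL/6J was 0.14 ± 0.10 (SE).

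**Figure D2:**
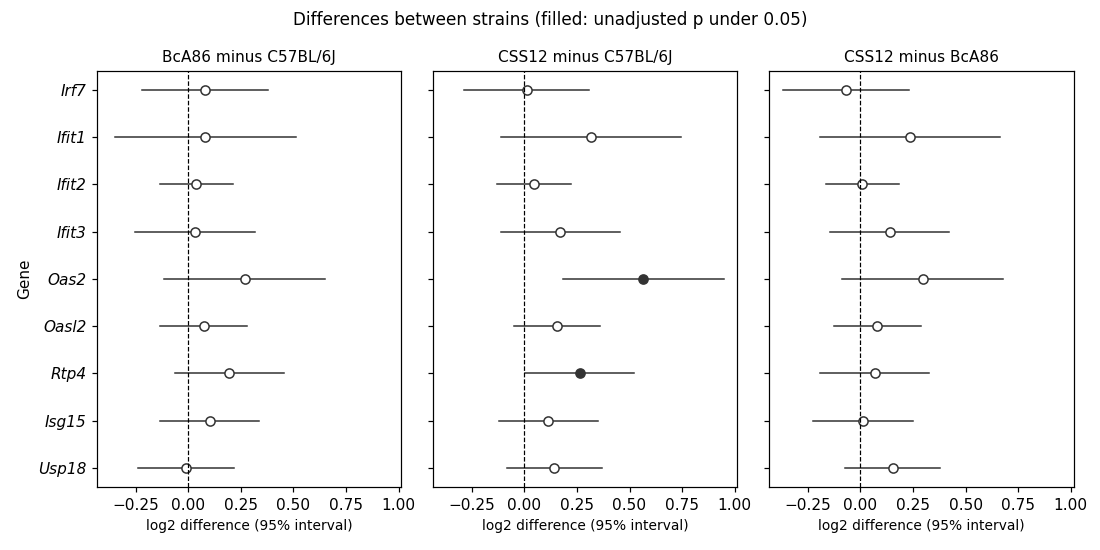
Log2 differences between strains for the 9 members (y axis) from 1 limma fit of 9 arrays, with 95% intervals (x axis, 0 marked by the dashed line) and filled symbols at an unadjusted p under 0.05. The interval of *Oas2* (0.18 to 0.95) and that of *Rtp4* lie above 0 for CSS12 minus C57BL/6J, and all other intervals in the 3 panels include 0.

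In CSS12 against C57BL/6J, 0 of 9 members passed an adjusted p of 0.05 in limma, where 0.22% of all probesets did. At an unadjusted p of 0.05, 2 of 9 were higher, *Oas2* and *Rtp4*, where 5.5% of all probesets were higher. This count ran from 1 to 4 over the alternatives, with 4 without C57BL/6J replicate 2, 1 (*Oas2*) without C57BL/6J replicate 1, and *Oas2* and *Ifit3* as the 2 without CSS12 replicate 2. In the same 2 genes the CSS12 and C57BL/6J mice did not overlap, as in 7.56% of all probesets. All 9 members had a positive difference, against 50.6% of all probesets, with a median of 0.15 against 0.00. Without CSS12 replicate 2 there were 7 positive differences. The median was 0.07 without both CSS12 replicate 2 and C57BL/6J replicate 1. With Cyber-T 1 member passed an adjusted p of 0.05, *Oas2* with an adjusted p of 0.021, against 2.61% of all probesets. By unadjusted p, Cyber-T gave 3 members and 12.3% of all probesets.

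In BcA86 against C57BL/6J, 0 of 9 members passed an adjusted p of 0.05 in limma, where 0.375% of all probesets did. At an unadjusted p of 0.05, 0 of 9 were higher, where 5.2% of all probesets were, and without C57BL/6J replicate 2 there were 3 (*Isg15*, *Oas2* and *Rtp4*). Cyber-T gave 0 members by adjusted p, against 2.45% of all probesets, and 1 by unadjusted p, against 12.2%. The median difference was 0.08 against 0.00, and 8 of 9 were positive, against 48.6% of all probesets. Without BcA86 replicate 1 the median was 0.02 and 5 were positive. Both comparisons share the C57BL/6J arrays, so their common direction is not read as a result.

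Between CSS12 and BcA86, 0 of 9 members passed an adjusted p of 0.05 in limma, where 0.716% of all probesets did. At an unadjusted p of 0.05, 0 were higher in CSS12, against 5.96% of all probesets. Without CSS12 replicate 2, *Ifit3* was higher (0.27) and *Irf7* lower (-0.22) at that p. Cyber-T gave 0 members by adjusted p, against 5.26% of all probesets, and 3 by unadjusted p, against 14.6%. The groups did not overlap, with CSS12 higher, for *Oas2* alone, against 9.85% of all probesets. The median of the 9 differences was 0.08, and it was 0.00 without CSS12 replicate 2.

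For the hyperresponsive strains together against C57BL/6J, 0 of 9 members passed an adjusted p of 0.05 in limma, where 0.302% of all probesets did. By Cyber-T 0 passed and 2 had an unadjusted p under 0.05, against 0.861% and 8.41% of all probesets. *Oas2* (log2 difference 0.42 ± 0.14 SE, unadjusted p = 0.020 in limma) and *Rtp4* (0.23 ± 0.10 SE, unadjusted p = 0.046 in limma) were the 2 of 9 that were higher at an unadjusted p of 0.05, as were 4.86% of all probesets. The count was 0 without C57BL/6J replicate 1 or C57BL/6J replicate 3 and 3 without C57BL/6J replicate 2. The difference of *Rtp4* was 0.11 without C57BL/6J replicate 1. The median difference was 0.11, against 0.00 for all probesets. The upper ends of the intervals bound what these 3 mice per strain leave possible, at 0.19 for *Ifit2*, 0.57 for *Ifit1* and 0.75 for *Oas2*.

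**Figure D3:**
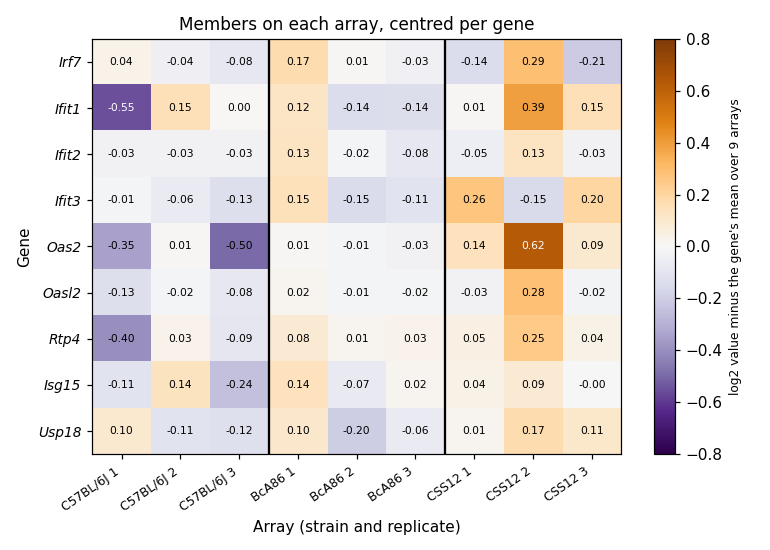
Log2 value of each member (rows) on each array (columns) minus the mean of that gene over the 9 arrays, with the value printed in the cell and shown by colour. CSS12 replicate 2 is high for 8 members, up to 0.62 for *Oas2*, and low for *Ifit3* at -0.15, while C57BL/6J replicate 1 is low for *Ifit1* (-0.55), *Rtp4* (-0.40) and *Oas2* (-0.35).

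Across the 9 arrays the members varied together only in part. Over the 36 pairs of members the median Pearson r was 0.46, as a description over 9 arrays that share strain and animal, and it was 0.32 without CSS12 replicate 2. *Ifit1* and *Rtp4* were the most alike pair, at 0.91, followed by *Oas2* and *Oasl2* at 0.89. The 3 negative pairs were those of *Ifit3* with *Irf7* (-0.42), *Oasl2* (-0.22) and *Ifit2* (-0.02). This set rested on CSS12 replicate 2, since without it the last 2 became 0.29 each and 7 pairs were negative, of which 4 held *Irf7*, 3 held *Usp18* and 1 held *Ifit3*. The mean of the members, each centred on its own mean, was -0.16, 0.01 and -0.14 in the C57BL/6J mice, 0.10, -0.06 and -0.05 in the BcA86 mice and 0.03, 0.23 and 0.04 in the CSS12 mice. The C57BL/6J and BcA86 mice overlapped, and a single CSS12 mouse lay above the rest.

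Among 19386 other named genes, the 10 whose values over the 9 arrays were most like that mean were *Oas1g* (r = 0.97), *Nans* (0.96), *Pdk4* (0.96), *Fam83d* (0.94), *Gpr141b* (0.94), *Cpxm1* (0.93), *Herc6* (0.93), *Cip2a* (0.93), *Fam167a* (0.93) and *Cep290* (0.93). All 10 were highest on CSS12 replicate 2, and 2 of them, *Oas1g* and *Herc6*, belong to the list of other type I targets. Without that array the r of the 10 ran from 0.86 (*Herc6*) to 0.95 (*Pdk4*). *Oas1g*, a synthetase of the family of *Oas2*, had values of 5.73, 6.06 and 5.45 in C57BL/6J, 6.49, 5.90 and 6.06 in BcA86 and 6.16, 7.19 and 6.23 in CSS12. The CSS12 mice lay above all C57BL/6J mice, with a log2 difference of 0.78 ± 0.29 (SE) and an adjusted p of 0.40 in limma, and CSS12 replicate 2 lay well above both others of its strain. Without that array the difference was 0.45. With Cyber-T the adjusted p was 0.046. *Herc6*, a ligase for ISG15 in mice, differed by 0.32 ± 0.11 between CSS12 and C57BL/6J, with an adjusted p of 0.35 in limma.

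Upstream of the members, no ligand, receptor, transducer, sensor or inhibitor passed an adjusted p of 0.05 in any of the 4 comparisons, by limma or Cyber-T. Of the 44 measured genes of these lists, 0 to 4 per comparison had an unadjusted p under 0.05 in limma and 1 to 3 in Cyber-T. Over all probesets the shares were 4.84% to 5.96% in each direction in limma, and 8.41% to 14.6% in either direction in Cyber-T. For the hyperresponsive strains together against C57BL/6J, the 16 measured interferon genes of 18 listed had a median log2 difference of -0.01, with 0 higher and 2 lower at an unadjusted p of 0.05, and with 1 higher and 0 lower without C57BL/6J replicate 1. The higher and lower shares over all probesets were 4.86% and 4.84% in this comparison. *Ifna11* and *Ifna2*, which encode interferon alpha subtypes, had the largest differences of this list, 0.26 ± 0.14 (SE) and 0.23 ± 0.14. Both probesets were dim and dropped out of the fit without dim probesets. The 16 measured sensors and adaptors of 17 had 1 higher and 0 lower by the same criterion, and 0 higher and 1 lower without CSS12 replicate 2. The counts of both lists thus turned with single arrays. The sensors were led by *Tlr9*, the endosomal receptor for unmethylated DNA, at -0.28 ± 0.19, and *Trim25*, a ligase that activates RIG-I, at 0.17 ± 0.07. Of the 6 measured inhibitors of 7, 1 was lower, *Socs3*, a suppressor of cytokine signalling, at -0.26 ± 0.10, and *Ptpn6*, a tyrosine phosphatase, was at -0.15 ± 0.08.

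Of the receptor and its transducers 6 genes were measured, and 1 of them, *Stat2*, was higher in CSS12 than in C57BL/6J at an unadjusted p of 0.05. That 1 became 0 when either CSS12 replicate 2 or C57BL/6J replicate 1 was left out. *Ifnar1* differed from C57BL/6J by 0.03 ± 0.08 (SE) in BcA86 and 0.01 ± 0.08 in CSS12, and *Ifnar2* by -0.03 ± 0.05 and -0.10 ± 0.05. *Irf9* differed by 0.08 ± 0.07 in each strain. *Stat2*, whose protein joins IRF9 in the complex that binds the response element, had values of 8.72, 8.995 and 8.95 in C57BL/6J, 8.97, 8.92 and 8.999 in BcA86 and 9.06, 9.36 and 9.11 in CSS12. All CSS12 mice lay above all others, with a difference from C57BL/6J of 0.29 ± 0.10 (SE), an unadjusted p of 0.022 and an adjusted p of 0.38 in limma.

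Of 44 other type I targets 39 were measured. Of these, 1, *Cmpk2*, was higher in the hyperresponsive strains at an adjusted p of 0.05 in limma, where 0.302% of all probesets passed. By unadjusted p, 5 were higher and 2 lower, against 4.86% and 4.84% of all probesets, with a median difference of 0.02. Without CSS12 replicate 2, 4 were higher and 4 lower. In CSS12 against C57BL/6J, 0 passed the adjusted limma test, against 0.22% of all probesets, and 2 passed with Cyber-T, against 2.61%. By unadjusted p in limma, 6 were higher and 1 lower, against 5.5% and 5.19% of all probesets. Without CSS12 replicate 2 these were 3 and 3, and without C57BL/6J replicate 1 they were 3 and 1.

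*Cmpk2*, a mitochondrial nucleotide kinase gene induced by interferon, had values of 8.92, 8.88 and 8.87 in C57BL/6J, 9.18, 9.24 and 9.24 in BcA86 and 9.14, 9.23 and 9.22 in CSS12. The 6 hyperresponsive mice lay above all 3 C57BL/6J mice, with little spread within any strain. *Cmpk2* was 1.25-fold higher in the hyperresponsive strains together, a log2 difference of 0.32 ± 0.05 (SE) with an adjusted p of 0.046 in limma. Leaving out any single array ended the call, with adjusted p from 0.078 to 0.15 and differences from 0.31 to 0.34. The adjusted p was 0.065 with both hyperresponsive strains taken as 1 group of mice and 0.14 with the mice blocked by replicate number. Cyber-T kept the call (adjusted p = 0.021). For each strain alone against C57BL/6J, the adjusted p in limma was 0.064 in BcA86 and 0.096 in CSS12. With trended and robust variances these were 0.016 and 0.029.

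*Rsad2*, which encodes the antiviral enzyme viperin, is the neighbour of *Cmpk2* on Chromosome 12. That chromosome is wholly of A/J origin in CSS12, whereas the A/J stretch of BcA86, as the study describes it, begins distal to both genes. Its values were 7.65, 7.89 and 7.82 in C57BL/6J, 8.31, 8.51 and 8.42 in BcA86 and 8.05, 8.25 and 8.33 in CSS12. Again all 6 hyperresponsive mice lay above the C57BL/6J mice, and here BcA86 had the higher mean. The log2 difference from C57BL/6J was 0.63 ± 0.10 (SE) in BcA86 and 0.42 ± 0.10 in CSS12, with adjusted p of 0.055 and 0.20 in limma, and 0.52 ± 0.09 with an adjusted p of 0.067 for both strains together. Cyber-T called all 3. In limma the BcA86 difference also passed with trended and robust variances (adjusted p = 0.032), replicate blocks (0.040) and dim probesets left out (0.020). With 1 array left out its adjusted p ran from 0.061 to 0.20. Whether the A/J chromosome of CSS12 differs from C57BL/6J in the bases under the probes of either gene was not examined.

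*Phf11d*, an interferon-induced gene of a PHD finger family, also lay higher in all 6 hyperresponsive mice, at 7.85 to 7.94 against 7.53 to 7.71 in C57BL/6J. Its difference was 0.29 ± 0.06 (SE) with an adjusted p of 0.13 in limma. The close relatives *Oas3* and *Ifit3b* of the members had negative differences. *Oas3*, another oligoadenylate synthetase, had values of 6.86, 6.74 and 6.60 in C57BL/6J, 6.69, 6.69 and 6.63 in BcA86 and 6.27, 6.63 and 6.31 in CSS12. It differed by -0.33 ± 0.11 (SE) between CSS12 and C57BL/6J, with an unadjusted p of 0.014 and an adjusted p of 0.34 in limma, while *Oas2* in the same mice was higher.

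*Ifit3b* had values of 6.24, 6.38 and 6.18 in C57BL/6J, 6.06, 5.57 and 5.52 in BcA86 and 6.24, 6.03 and 5.96 in CSS12. The BcA86 mice lay below all C57BL/6J mice, with a log2 difference of -0.55 ± 0.15 (SE), an unadjusted p of 0.0060 and an adjusted p of 0.24 in limma. In the same mice *Ifit3*, with the same promoter stretch shown above, differed by 0.03 ± 0.12, and by 0.06 without C57BL/6J replicate 1. *Rsad2*, *Phf11d*, *Oas1g*, *Oas3* and *Ifit3b* were chosen for description after their values were seen.

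**Figure D4:**
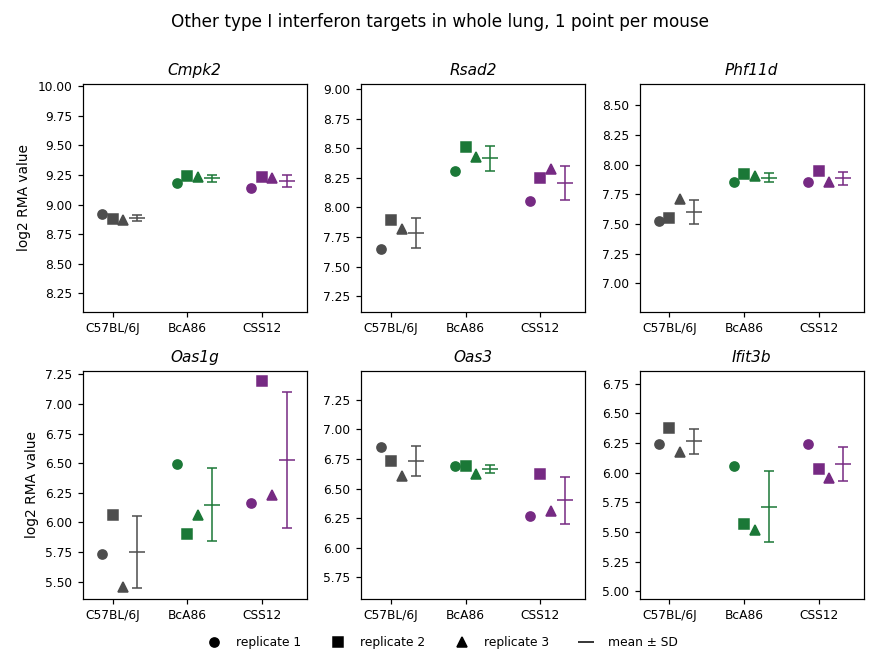
Log2 RMA value (y axis, the same span in each panel) of 6 other type I targets in the 3 strains (x axis), with 1 symbol per mouse by replicate number and the mean ± SD of 3 mice beside the points. All hyperresponsive mice lie above the C57BL/6J mice for *Cmpk2*, *Rsad2* and *Phf11d*, the BcA86 mice lie below the C57BL/6J mice for *Ifit3b* at 5.52 to 6.06 and overlap the CSS12 mice, and CSS12 replicate 2 reaches 7.19 for *Oas1g*.

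Targets of interferon gamma, a cytokine of T and NK cells, were counted beside the members. Whether interferon gamma or type I interferon acted on them in these lungs was not tested. Of 21 listed, 18 were measured, and 0 passed the adjusted limma test in any comparison. By unadjusted p in limma, BcA86 and CSS12 together had 8 higher and 0 lower, against 4.86% and 4.84% of all probesets. Cyber-T called 3 by adjusted p, against 0.861%. In CSS12 against C57BL/6J, 7 were higher and 0 lower by unadjusted p in limma, against 5.5% and 5.19%. Without C57BL/6J replicate 1 the 8 became 3, with 1 lower, and the 7 became 5, with 1 lower. Without CSS12 replicate 2 the 7 became 4, as it did without C57BL/6J replicate 2. *Gbp4* and *Iigp1*, GTPases that act against intracellular pathogens, differed by 0.70 ± 0.21 (SE) and 0.65 ± 0.14 in both strains together, with adjusted p of 0.32 and 0.17 in limma. Without C57BL/6J replicate 3 *Gbp4* differed by 1.01, with an adjusted p of 0.045 in limma. Without C57BL/6J replicate 1 it differed by 0.51, with an adjusted p of 0.58. The mean of the 18 genes was 8.12 to 8.26 in C57BL/6J, 8.23 to 8.37 in BcA86 and 8.33 to 8.69 in CSS12, with the highest value again in CSS12 replicate 2.

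Markers of cells that make or carry interferon transcripts also moved between the strains, and their part in the members' values was not tested. The mean over 7 plasmacytoid dendritic cell markers, of which *Bst2* is also an interferon target, was 7.76 to 8.11 in C57BL/6J, 7.24 to 7.45 in BcA86 and 7.36 to 7.50 in CSS12. Within this list *Ly6d*, which B cells express too, differed by -1.29 ± 0.15 (SE) on the log2 scale between the hyperresponsive strains together and C57BL/6J, with an adjusted p of 0.017 in limma. This call was lost in 5 of the 9 fits that left out 1 array, namely each C57BL/6J mouse, CSS12 replicate 2 or BcA86 replicate 1, with adjusted p from 0.054 to 0.083. Neutrophil markers averaged 6.16 to 6.68 in CSS12 against 7.10 to 8.21 in C57BL/6J and 7.71 to 7.90 in BcA86, and all 8 had a negative difference in CSS12 against either strain. Monocyte markers, led by *Nr4a1* (-1.39 ± 0.27 SE, adjusted p = 0.12 in limma) and *Treml4* (-0.54 ± 0.16 SE, adjusted p = 0.30 in limma), averaged 9.90 to 10.29 in C57BL/6J and 9.52 to 9.94 in the other strains. Without C57BL/6J replicate 1 the difference of *Nr4a1* was -0.96, with an adjusted p of 0.030 in limma. With Cyber-T on all arrays its adjusted p was 1.2e-05. Of the 6 monocyte markers, 5 had a negative difference in the hyperresponsive strains together and 1 a positive one (0.28), with a median of -0.15. At an unadjusted p of 0.05 in limma, 2 were lower and 1 higher, against 4.84% and 4.86% of all probesets. B cell markers averaged 7.75 to 8.44 in CSS12, 8.47 to 9.21 in C57BL/6J and 8.89 to 9.35 in BcA86. Heart and adipose markers overlapped between C57BL/6J and each other strain. Of 4 T cell markers, 1 was lower without overlap in CSS12 and 2 in BcA86, as were 3089 and 3150 of 41345 probesets. Of 3 NK cell markers, 1 was higher without overlap in each strain, against 7.56% of all probesets in CSS12 and 6.77% in BcA86. The median difference of the NK cell markers was 0.00 in CSS12 and 0.34 in BcA86.

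A macrophage marker moved with the array that stood apart. *Chil3*, a chitinase-like protein gene of alveolar macrophages, read 12.48 on CSS12 replicate 2 against 10.25 to 10.85 on the 8 other arrays. Over 6 macrophage markers that array had the highest mean, 9.47, against 8.82 to 9.14 elsewhere. *Chil3* is 1 of the 6 and enters this mean, which was not taken without it. In CSS12 against C57BL/6J, 3 of the 6 had a positive difference and 3 a negative one, with a median of 0.03. *Adgre1*, a macrophage adhesion receptor gene, differed by -0.26 ± 0.09 (SE) between the hyperresponsive strains together and C57BL/6J, with an adjusted p of 0.41 in limma. The part of macrophages in the values of CSS12 replicate 2 was not tested.

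Genes that respond to handling of tissue also differed. *Hspa1a* and *Hspa1b*, which encode inducible HSP70 proteins, were lower in the hyperresponsive strains together, with log2 differences of -2.51 ± 0.24 (SE) and -2.39 ± 0.34 and adjusted p of 0.0081 and 0.040 in limma. With the mice blocked by replicate number both calls were lost (adjusted p of 0.051 and 0.14 in limma). Leaving out any single array other than C57BL/6J replicate 1 ended the call of *Hspa1b*, with adjusted p from 0.054 to 0.14, while that of *Hspa1a* held in all 9 such fits. The mean of the 5 handling genes was 9.64 to 10.16 in C57BL/6J against 8.51 to 8.90 in the 6 other mice. Of these 5 genes, 4 had a negative difference in the hyperresponsive strains together and 1 a positive one (0.04), with a median of -0.83. Only 2 were lower without overlap, as were 1050 of 41345 probesets. Among the members, 0 of 9 were higher in all 6 hyperresponsive mice than in all C57BL/6J mice, against 2.35% of all probesets, and nothing is read from that count at so low a background.

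**Figure D5:**
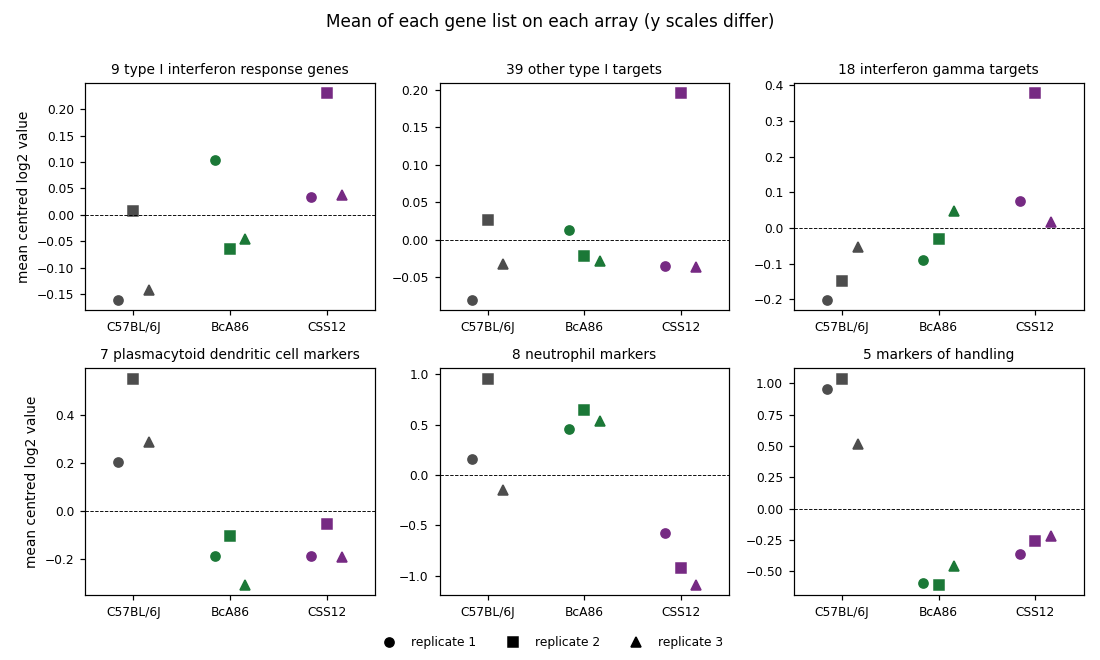
Mean of the centred log2 values of 6 gene lists (y axis, different scales) in the 3 strains (x axis), with 1 symbol per mouse by replicate number. CSS12 replicate 2 is highest for the members (0.23), other type I targets (0.20) and interferon gamma targets (0.38), while the plasmacytoid dendritic cell and handling lists are highest in the 3 C57BL/6J mice and the neutrophil list is lowest in the 3 CSS12 mice.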

How the data were processed

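Whole-lung RNA of 9 mice was measured on Affymetrix Gene 2.0 ST arrays, 1 array per mouse and 3 mice per strain, with all RNA extracted in a single session by column kit. FlexArray served the authors for RMA normalization, and the log2 values that they deposited, 1 for each probeset on each array, were used without further normalization or filter. RMA fits each probeset by median polish, which can give arrays the same value. Neither the version of FlexArray nor the build of the probes is given in the sources used here. Gene names came from the platform annotation, where 23521 probesets carry 1 symbol, 1820 several and 16004 none.

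The 9 arrays entered 1 linear model with empirical Bayes variances (limma 3.58.1 under R 4.3.3), and p was adjusted by Benjamini-Hochberg over 41345 probesets. The precision is limited by 3 arrays per strain. Members, lists and tests were chosen with earlier results of these data known. Named are all members, direct partners of the pathway, and of each list the genes that passed or else the 2 with the largest difference in the hyperresponsive strains together. Likeness is Pearson r over 9 arrays. Promoters were read in Python 3.11.15 and aligned with Biopython 1.88. The code was tested on simulated data. Alternatives were trended and robust variances, Cyber-T (window of 101 probesets, prior weight of 10), a fit without the third strain, blocks by replicate number, centred arrays, dim probesets left out, array weights and each array left out. The window and prior weight of Cyber-T were assumed, since the study states neither. Leaving out CSS12 replicate 2 with C57BL/6J replicate 1 was added after the data were seen.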

Additional observations from a re-analysis of the deposited data

Results flagged for a closer look

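Between CSS12 and BcA86, 2 neutrophil markers differed in the limma fit. The log2 difference of *Csf3r*, the receptor for granulocyte colony-stimulating factor, was -1.34 with an adjusted p of 0.034, and that of *Ngp*, a neutrophil granule protein gene, was -0.56 with an adjusted p of 0.030. *Csf3r* had 8.27, 7.82 and 7.62 in the CSS12 mice against 9.09, 9.34 and 9.30 in the BcA86 mice, and *Ngp* had 4.70, 4.61 and 4.55 against 5.22, 5.25 and 5.08. For both genes all CSS12 mice lay below all BcA86 mice. Cyber-T also called *Csf3r* (adjusted p = 1.0e-07) and *Ngp* (0.032). Both limma calls were lost in a fit of these strains alone (adjusted p of 0.075 and 0.069 in limma) and with mice blocked by replicate number (0.085 and 0.062). Leaving out 1 array at a time ended the call of *Csf3r* in 7 of 9 fits (the fit lacking CSS12 replicate 1 and the fit lacking C57BL/6J replicate 2 kept it), with adjusted p from 0.050 to 0.14, and that of *Ngp* in 6 of 9 (all but those without C57BL/6J replicate 1, C57BL/6J replicate 2 or BcA86 replicate 3), from 0.052 to 0.13.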

How the results depend on the processing

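The count of members past an adjusted p of 0.05 stayed at 0 in all 4 comparisons under 16 of 17 alternatives. The exception was Cyber-T, which called 1 member, *Oas2*, in CSS12 against C57BL/6J (adjusted p = 0.021). The cause was not tested. Differences close to 0 changed sign. With array weights *Ifit1* in BcA86 against C57BL/6J became -0.0032, and *Irf7* and *Ifnar1* in CSS12 against C57BL/6J became -0.017 and -0.015. Leaving out CSS12 replicate 2 and C57BL/6J replicate 1 together, an alternative chosen after seeing the data, gave against C57BL/6J -0.13 for *Ifit1*, -0.061 for *Ifnar1*, -0.0073 for *Stat2* and 0.059 for *Usp18* in BcA86. For CSS12 it gave -0.0095 for *Ifit2*, -0.082 for *Ifnar1*, -0.11 for *Irf7* and -0.020 for *Irf9*, and for both strains together -0.063 for *Ifit1* and -0.0002 for *Irf7*. Between CSS12 and BcA86 it gave -0.048 for *Ifit2*, -0.0095 for *Isg15*, -0.021 for *Oasl2* and -0.0017 for *Rtp4*. Leaving out 1 array at a time turned the sign of 16 differences. Their ranges for BcA86 against C57BL/6J were -0.13 to 0.22 for *Ifit1*, -0.021 to 0.084 for *Ifit2*, -0.058 to 0.088 for *Ifit3*, -0.061 to 0.080 for *Ifnar1*, -0.0073 to 0.13 for *Stat2* and -0.091 to 0.064 for *Usp18*. For CSS12 against C57BL/6J they were -0.0092 to 0.079 for *Ifit2*, -0.077 to 0.064 for *Ifnar1* and -0.14 to 0.11 for *Irf7*. For both strains together they were -0.011 to 0.34 for *Ifit1* and -0.033 to 0.093 for *Irf7*. Between CSS12 and BcA86 they were -0.048 to 0.068 for *Ifit2*, -0.22 to 0.028 for *Irf7*, -0.039 to 0.067 for *Isg15*, -0.021 to 0.13 for *Oasl2* and -0.0017 to 0.10 for *Rtp4*. *Oas2* kept a positive difference in every alternative, from 0.36 to 0.71 in CSS12 against C57BL/6J. With the mice blocked by replicate number, 0 members passed in each comparison, and the smallest adjusted p of a member in CSS12 against C57BL/6J was 0.23 (limma). Same-numbered mice deviated together with correlations from -0.11 to 0.15 over all probesets, so the numbers were not taken as pairs. Averaging the probesets of a gene could not be tried, since each member has 1 probeset, and without dim probesets *Isg15* dropped out. The calls of *Ly6d* (adjusted p = 0.13) and *Hspa1b* (0.14) were lost in limma with both hyperresponsive strains taken as 1 group of mice, and leaving out both arrays together also lost these calls and that of *Hspa1a* (0.17, 0.11 and 0.098). The number of mice and the spread between them limit what could be detected.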
